A study of Mus musculus with 4 samples.

Results

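Sgcd and Tacr1 are 2 of the 32285 genes counted in single-nucleus RNA libraries of mouse pituitary glands, and they were selected on their UMI counts, which were far higher in gonadotropes of the 22-month libraries than of the 5-month libraries. Their rows were found by gene symbol, and their raw counts of unique transcripts (UMIs) were followed in gonadotropes and in the other marker-named classes of nuclei of every library. There is 1 library each for mice labelled 22-month males and 22-month females and, as the younger groups, 5-month males and 5-month females, and each pooled nuclei of 3 snap-frozen glands of wild-type UM-HET3 mice, a genetically heterogeneous stock. No group has a replicate library, so no difference between libraries was tested, and every interval below is a 95% interval that covers counting error only. Because the members were picked for their level in 22-month gonadotropes, that level and its ratio to the 5-month libraries are descriptions.

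Sgcd encodes delta-sarcoglycan, a membrane glycoprotein of the sarcoglycan subcomplex, which in striated and smooth muscle is part of the dystrophin-associated complex that links the cytoskeleton to the extracellular matrix. Tacr1 encodes the tachykinin receptor NK1, which binds substance P and couples mainly to Gq, the G protein that activates phospholipase C. Gonadotropes are the pituitary cells that make luteinizing hormone and follicle-stimulating hormone. Their hypothalamic signal, GnRH, acts through Gnrhr, which also couples to Gq.

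The labelled sex of 2 libraries did not match their sex-chromosome transcripts. A UMI of Xist, a non-coding RNA of the inactivated X, was found in 97.3% and 85.8% of the nuclei of the male-labelled and female-labelled 22-month libraries, against 0.112% and 0.212% in the male-labelled and female-labelled 5-month libraries. UMIs of 4 Y-linked genes were found in 0.203% and 0.304% of the nuclei of the 22-month libraries, against 85.6% and 84.3% of the 5-month libraries. The libraries labelled 22-month males and 5-month females therefore go against their labels, and labelled age cannot be told apart from sex-chromosome content. Were the labels of these 2 libraries exchanged, which was not tested, each 22-month over 5-month ratio of a labelled sex would compare sexes within an age, and each female over male ratio of a labelled age would compare ages within a sex. Group names below are the labels. The libraries held 33328821 to 65773807 UMIs, and 6597 to 10355 nuclei with a median of 3460 to 4745 UMIs remained after filtering. Pairs of libraries shared 14 to 43 cell barcodes.

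The gonadotrope label was checked against markers. Gonadotrope-like nuclei numbered 298 and 171 in the 22-month libraries of males and females, and 313 and 266 in the 5-month libraries. In the same order, their median depth was 6262, 8066, 4156 and 4880 UMIs. Gnrhr had 1356 and 1266 CPM, the UMIs of a gene per 1000000 UMIs of the class, in the 22-month libraries, against 976 and 719 CPM in the 5-month libraries, and at least 1 UMI was found in 96.6%, 95.3%, 90.4% and 82.7% of these nuclei. Other named classes had a UMI of Gnrhr in 2.19%, 1.25%, 0.839% and 0.726% of nuclei, at lower median depths of 4078, 4689, 3434 and 3615 UMIs. The nuclei came from a pair of clusters made without Sgcd and Tacr1. One held 291 and 161 nuclei of the 22-month libraries and 1 and 0 of the 5-month libraries, and the other held 7 and 10 nuclei of the 22-month libraries and 312 and 266 of the 5-month libraries.

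Sgcd (ENSMUSG00000020354) is a very long gene on the minus strand of mm10 chromosome 11, from 46896253 to 47988969, and 0.756% of its 1092717 bases are annotated as exon in GENCODE M21. It overlaps 2 annotated genes, neither of which was counted in the files. Tacr1 (ENSMUSG00000030043) lies on the plus strand of chromosome 6, from 82402334 to 82560104, spans 157771 bases of which 4.11% are exonic, and overlaps no other annotated gene. The promoter windows of both genes are shown because both were high in the same class of nuclei of the same libraries. They run from 250 bases before to 50 bases after the RefSeq start (GRCm38.p6, at chr11:47379276-47379575 on the minus strand and chr6:82402225-82402524 on the plus strand). The Sgcd window lies inside the annotated gene, which on this strand begins at 47988969, and no window at that end was searched. Printed are the bases that come before the first GENCODE exon in each window, chr11:47379523-47379575 and chr6:82402225-82402333.
Sgcd: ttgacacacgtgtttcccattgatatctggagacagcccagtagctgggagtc
Tacr1: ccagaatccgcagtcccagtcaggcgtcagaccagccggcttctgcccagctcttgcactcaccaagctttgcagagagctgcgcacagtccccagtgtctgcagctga
The whole windows of 300 bases were searched on both strands for the estrogen response element GGTCANNNTGACC, the nuclear receptor half-site AGGTCA, the SF-1 site TCAAGGTCA (which contains the half-site), the EGR1 site GCGTGGGCG and the progesterone or androgen receptor element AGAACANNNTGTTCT. None of these letters occurred in either window, so no base is in capitals. Of 32851 RefSeq promoter windows, 0.0700% held the estrogen response element, 16.3% the half-site, 0.423% the SF-1 site, 0.612% the EGR1 site and 0.00913% the progesterone or androgen element. The counts do not show which annotated start the transcripts used.

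Sgcd was abundant in gonadotrope-like nuclei of both 22-month libraries and nearly absent from those of both 5-month libraries. It had 1079 UMIs in 22-month males and 424 in 22-month females, against 5 in 5-month males and 5 in 5-month females. As CPM, these are 528 CPM (497 to 560) in 22-month males and 277 CPM (251 to 305) in 22-month females, against 3.59 CPM (1.16 to 8.37) in 5-month males and 3.61 CPM (1.17 to 8.42) in 5-month females. The counting intervals of the 22-month and 5-month libraries do not overlap, but Sgcd was selected on this contrast, so nothing is read from that. The ratio was 147 (62.9 to 455) for 22-month over 5-month males and 76.8 (32.7 to 238) for 22-month over 5-month females. Without the libraries that go against their labels, 22-month females over 5-month males remain, with a ratio of 77.3 (32.9 to 239). Within an age, 22-month females had 0.525 times the CPM of 22-month males (0.468 to 0.588), while 5-month females over 5-month males gave 1.01 (0.231 to 4.37), an interval too wide to show a difference of that size.

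Tacr1 had the same order of libraries at a lower level. It had 80 UMIs in gonadotrope-like nuclei of 22-month males and 57 in those of 22-month females, against 0 and 0 in 5-month males and 5-month females. The levels were 39.2 CPM (31.0 to 48.7) in 22-month males and 37.3 CPM (28.2 to 48.3) in 22-month females, against 0 in both 5-month libraries, where a count of 0 allows up to 2.15 and 2.16 CPM at a floor of 3 counts per library. With the 5-month count at that floor, Tacr1 was 18.2-fold higher in 22-month than in 5-month males, with a lower limit of 14.5. For 22-month over 5-month females it was 17.2-fold higher, with a lower limit of 13.6. For 22-month females over 5-month males, the pair whose labels match, it was 17.3-fold higher at the floor, with a lower limit of 13.6. Between the 22-month libraries, females over males, the ratio was 0.951 (0.665 to 1.35). Per kilobase of gene, the level of Sgcd was 0.483 and 0.254 CPM in 22-month males and females, and that of Tacr1 0.248 and 0.236 CPM.

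**Figure D1:**
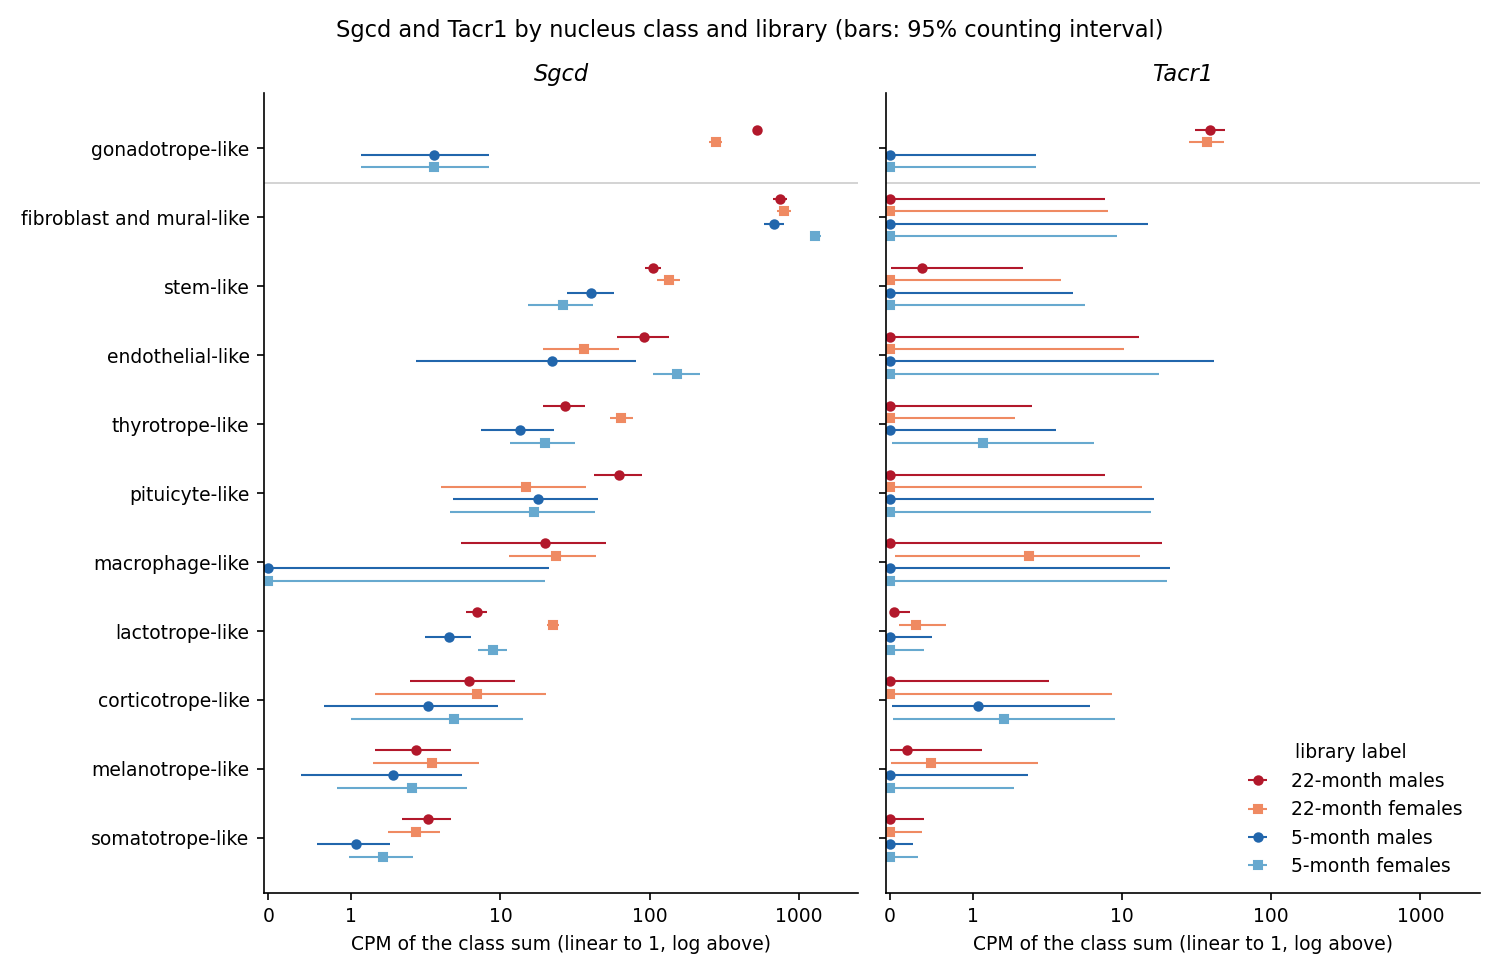
Level of Sgcd (left) and Tacr1 (right) in each class of nuclei, in CPM of the class sum on an axis that is linear to 1 and logarithmic above, with a point per library and a 95% counting interval. In the gonadotrope-like row the 22-month libraries sit at 528 and 277 CPM for Sgcd and 39.2 and 37.3 CPM for Tacr1, right of both 5-month libraries.

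Both genes had many UMIs in some gonadotrope-like nuclei and none in others. A UMI of Sgcd was found in 193 of 298 nuclei of 22-month males, a share of 64.8% (exact Clopper-Pearson interval, 59.0 to 70.2). In 22-month females it was found in 76 of 171 nuclei, or 44.4% (36.9 to 52.2). The 5-month libraries had 4 of 313 nuclei, or 1.28% (0.349 to 3.24), in males and 4 of 266, or 1.504% (0.411 to 3.81), in females. Since the 22-month nuclei were deeper, each nucleus was also thinned to 2000 UMIs, which left out 5, 1, 14 and 6 shallower nuclei. The shares were then 42.7% and 26.5% in 22-month males and females, against 0.669% and 0.385% in 5-month males and females. As a background, somatotrope-like nuclei, the class with the lowest mean level, had a thinned share of 0.251% and 0.430% in the 22-month libraries and 0.230% and 0.168% in the 5-month libraries, at unthinned median depths of 3898, 4431, 3702 and 3898 UMIs. The 5-month gonadotrope-like shares are close to that background, and the 22-month ones are far above it.

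The spread between nuclei was wide for Sgcd. In 22-month males 105 nuclei had no UMI, 44 had 1, 81 had 2 to 5, 62 had 6 to 20 and 6 had over 20, with a maximum of 39. In 22-month females 95 had none, 22 had 1, 30 had 2 to 5, 22 had 6 to 20 and 2 had over 20, with a maximum of 45. The variance was 8.81 and 11.9 times the mean in these libraries, against 5.69 and 10.2 times for Gnrhr in the same nuclei. In 5-month nuclei no more than 2 UMIs of Sgcd were found in any nucleus.

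Tacr1 was confined to fewer nuclei. At least 1 UMI was found in 27 of 298 nuclei of 22-month males, or 9.06% (6.06 to 12.9), and in 18 of 171 of 22-month females, or 10.5% (6.36 to 16.1). In the 5-month libraries it was found in 0 of 313 nuclei, which allows a share of up to 0.958% at the floor of 3 counts per library, and in 0 of 266, which allows up to 1.13%. After thinning the shares were 3.07% and 4.71% in 22-month males and females, against 0 in both 5-month libraries. A single nucleus held 23 of the 80 UMIs in 22-month males, and another held 16 of the 57 in 22-month females. Without these nuclei the levels were 28.2 and 27.2 CPM.

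**Figure D2:**
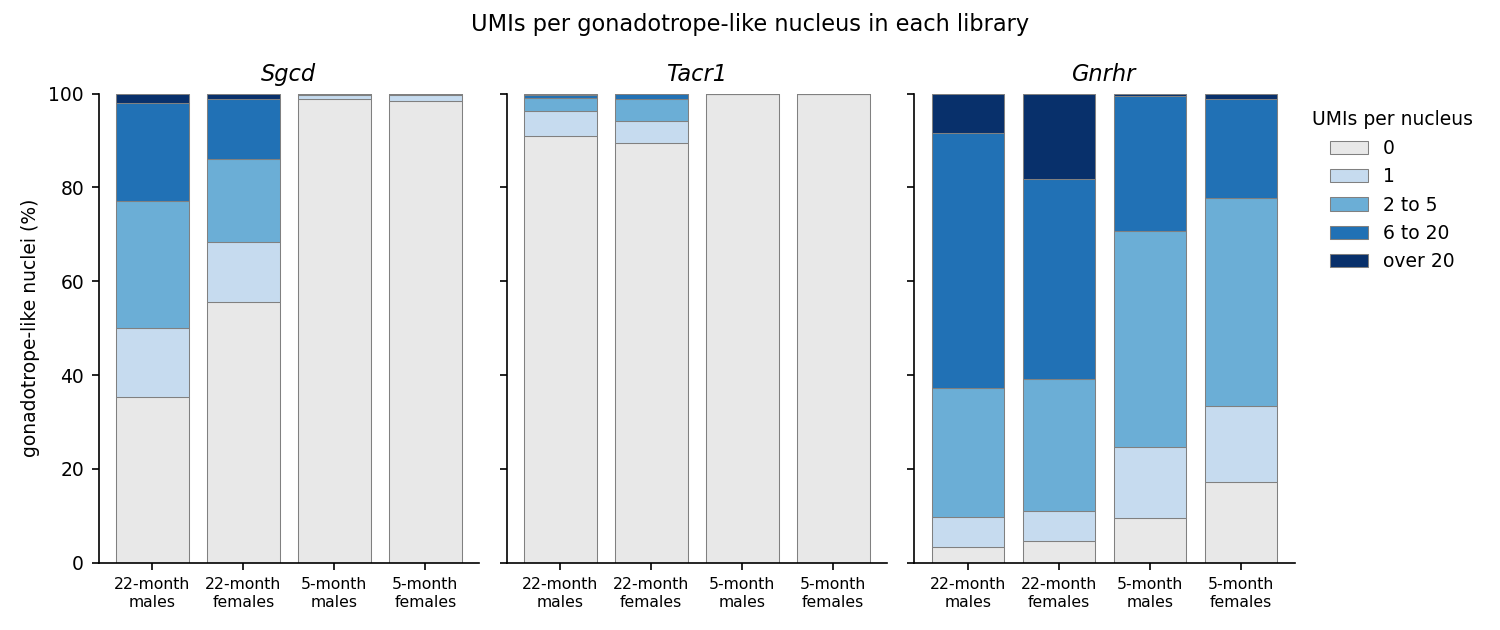
Share of gonadotrope-like nuclei (vertical axis, percent) with 0, 1, 2 to 5, 6 to 20 or over 20 UMIs of Sgcd, Tacr1 and Gnrhr, with a stacked bar per library. Nuclei with a UMI of Sgcd made up 64.8% and 44.4% of the 22-month bars and 1.28% and 1.504% of the 5-month bars, while Gnrhr was found in 82.7% or more of the nuclei in every library.

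The members overlapped in a minority of nuclei. Both were found in 17 nuclei of 22-month males, 5.70% of the class, where the product of the separate shares is 5.87%. In 22-month females both were found in 13 nuclei, or 7.602%, where the product is 4.68%. Nuclei with neither made up 31.9% and 52.6%. These shares depend on depth, and after thinning 1 and 4 nuclei held both, too few to compare.

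Within the 22-month libraries, Sgcd was higher in the gonadotrope-like nuclei that had no UMI of Fshb, the beta subunit of follicle-stimulating hormone. In 22-month males it had 737 CPM (679 to 798) in 126 nuclei without Fshb and 387 CPM (353 to 423) in 172 nuclei with it, a ratio of 1.91 (1.69 to 2.15). In 22-month females it had 462 CPM (402 to 529) in 54 nuclei without and 199 CPM (173 to 227) in 117 nuclei with Fshb, a ratio of 2.32 (1.91 to 2.82). Nuclei without Fshb were not deeper, with median depths of 5958 and 7445 UMIs, against 6369 and 8372 UMIs in nuclei with it. In thinned counts the share of nuclei with a UMI of Sgcd was 53.2% without and 34.9% with Fshb in 22-month males, and 38.9% without and 20.7% with it in 22-month females. Leaving out the nucleus with most UMIs on each side gave ratios of 1.94 and 2.52.

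For Tacr1 the Fshb split was less even. In 22-month females it had 88.0 CPM (62.9 to 120) without Fshb and 15.8 CPM (9.20 to 25.3) with it, a ratio of 5.57 (3.09 to 10.5), which was 4.60 (2.25 to 9.84) without the top nucleus on each side. In 22-month males it had 54.5 CPM (39.8 to 73.0) without and 28.7 CPM (20.01 to 40.0) with Fshb, but the ratio of 1.90 (1.19 to 3.04) became 1.27 (0.684 to 2.32) without the top nuclei.

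For Sgcd, the same split by Lhb or Gnrhr did not give that order in both libraries. In 22-month males Sgcd had 504 CPM (472 to 538) in 263 nuclei without a UMI of Lhb, the beta subunit of luteinizing hormone, and 687 CPM (591 to 793) in 35 nuclei with it. In 22-month females it had 279 CPM (248 to 313) in 130 nuclei without and 272 CPM (227 to 323) in 41 nuclei with Lhb. Sgcd was thus higher with Lhb in males, while in females the intervals overlapped. A single nucleus held 45 of the 131 Sgcd UMIs with Lhb in 22-month females. Leaving out the nucleus with most UMIs on each side gave 485 CPM without and 576 CPM with Lhb in males. In females it gave 251 CPM without and 184 CPM with Lhb. The thinned shares were 40.7% without and 57.1% with Lhb in 22-month males, and 25.6% without and 29.3% with it in 22-month females. Few nuclei lacked Gnrhr. Sgcd had 158 CPM (68.2 to 311) in 10 nuclei without and 537 CPM (506 to 571) in 288 nuclei with Gnrhr in 22-month males. In 22-month females it had 1258 CPM (957 to 1622) in 8 nuclei without and 246 CPM (221 to 273) in 163 nuclei with Gnrhr, and a single nucleus held 45 of the 59 UMIs of those 8. Tacr1 had 42.2 CPM (33.2 to 53.0) without and 18.7 CPM (6.06 to 43.5) with Lhb in 22-month males, and 36.2 CPM (25.6 to 49.7) without and 39.5 CPM (23.8 to 61.6) with it in 22-month females, so the intervals overlapped in both. Single nuclei held 4 of the 5 and 16 of the 19 Tacr1 UMIs with Lhb in 22-month males and females. Leaving out the nucleus with most UMIs on each side gave 29.6 CPM without and 3.84 CPM with Lhb in males. In females it gave 28.8 CPM without and 6.56 CPM with Lhb. The levels with Lhb then rest on very few UMIs. By Gnrhr, Tacr1 had 474 CPM (304 to 705) without and 28.1 CPM (21.2 to 36.5) with it in 22-month males. A single nucleus, which also had no UMI of Fshb, held 23 of the 24 Tacr1 UMIs of the 10 nuclei without Gnrhr. Leaving it out gave 31.1 CPM. In 22-month females Tacr1 had 21.3 CPM (0.540 to 119) without and 37.8 CPM (28.5 to 49.0) with Gnrhr. The nuclei of a library are not replicates, so these splits describe 2 pools. They were chosen after values had been seen.

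**Figure D3:**
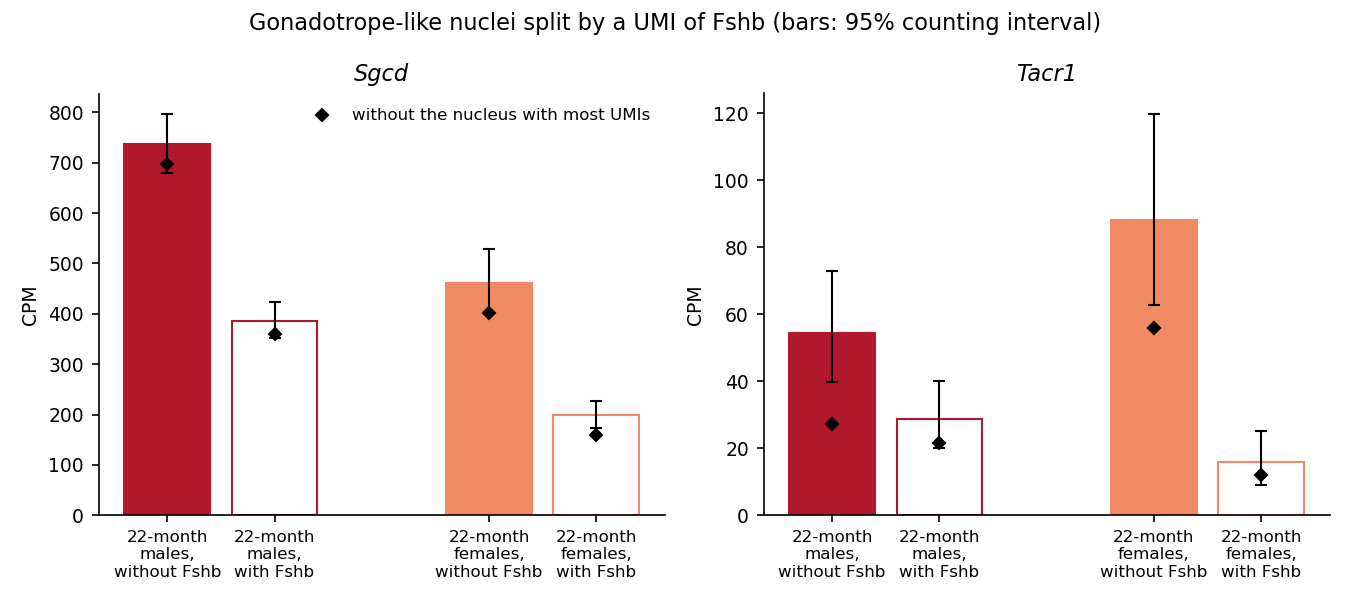
CPM of Sgcd (left) and Tacr1 (right) in gonadotrope-like nuclei of the 22-month libraries, filled bars for nuclei without and open bars for nuclei with a UMI of Fshb, with 95% counting intervals and, as diamonds, the level without the nucleus with most UMIs. For Sgcd the bars stand at 737 and 387 CPM in 22-month males and at 462 and 199 CPM in 22-month females, and the diamonds keep that order.

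Few nuclei clustered with those of the other labelled age. The 7 and 10 nuclei of 22-month males and females that lay in the cluster of mainly 5-month nuclei had 3 and 9 UMIs of Sgcd in 2 and 4 nuclei, or 154 CPM (31.7 to 449) and 254 CPM (116 to 482). The 312 and 266 nuclei of 5-month males and females in that cluster had 5 and 5 UMIs, or 3.599 CPM (1.17 to 8.398) and 3.606 CPM (1.17 to 8.41). The 22-month levels there rest on few UMIs, and Sgcd was selected on this contrast, so nothing is read from the difference. The single 5-month nucleus in the other cluster had no UMI of either gene, from which nothing can be read. The 7 and 10 nuclei held no Tacr1, at a number that could not show the share seen in the rest.

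Outside gonadotropes, Sgcd was highest in fibroblast and mural-like nuclei, a class that includes vascular smooth muscle and pericytes, where sarcoglycans are known to be made. It had 750 CPM (674 to 831) and 796 CPM (716 to 882) in 22-month males and females, against 681 CPM (581 to 792) and 1293 CPM (1184 to 1409) in 5-month males and females. In this class the ratio of 22-month over 5-month libraries was 1.10 (0.914 to 1.33) for males, an interval that includes 1. For females it was 0.615 (0.537 to 0.705), so the 22-month level was lower. A single nucleus held 105 of the 363 UMIs of 22-month females and another 88 of the 518 of 5-month females, and without them the levels were 568 and 1094 CPM. Gonadotrope-like nuclei had 0.704 times the CPM of this class in 22-month males (0.625 to 0.796) and 0.348 times in 22-month females (0.302 to 0.402), against 0.00527 and 0.00279 times in 5-month males and females. Averaged over libraries, gonadotrope-like nuclei came after this class and before the stem-like class, but in the 5-month libraries they were below stem-like nuclei, with intervals that do not overlap. In 5-month males they had 0.263 times the CPM of thyrotrope-like nuclei (0.0742 to 0.773). The ratios to endothelial-like and pituicyte-like nuclei in that library, 0.161 (0.0263 to 1.69) and 0.202 (0.0435 to 1.02), had intervals that include 1, so their order is not shown there. In 5-month females the ratio was 0.182 (0.0526 to 0.515) to thyrotrope-like and 0.0235 (0.00715 to 0.0608) to endothelial-like nuclei. To pituicyte-like nuclei it was 0.213 (0.0459 to 1.07), an interval that includes 1.

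Within both labelled sexes, Sgcd was also higher in 22-month libraries in some other classes, by much smaller ratios. Stem-like nuclei, the Sox2 and Sox9 class, had 105 and 135 CPM in 22-month males and females, against 40.6 and 26.2 CPM in 5-month males and females. The ratios were 2.59 (1.79 to 3.86) and 5.15 (3.09 to 9.11). One nucleus held 40 of the 269 UMIs of 22-month males, and the level was 89.7 CPM without it. Thyrotrope-like nuclei, which make thyrotropin, had 27.0 and 64.7 CPM in 22-month males and females, against 13.6 and 19.8 CPM in 5-month males and females, with ratios of 1.98 (1.05 to 3.94) and 3.27 (1.96 to 5.80). Lactotrope-like nuclei, which make prolactin, had 6.92 and 22.6 CPM in 22-month males and females, against 4.52 and 8.90 CPM in 5-month males and females, with ratios of 1.53 (1.05 to 2.30) and 2.54 (1.9999 to 3.27). Of the 7 classes with at least 20 Sgcd UMIs in the higher library of each pair, gonadotropes and these 3 had both intervals above 1. Paired across the labelled sexes, 22-month males over 5-month females gave 4.01 (2.46 to 6.98) in stem-like nuclei. That pair gave 1.36 (0.756 to 2.56) in thyrotrope-like and 0.778 (0.590 to 1.03) in lactotrope-like nuclei, intervals that include 1. In the same order of classes, 22-month females over 5-month males gave 3.32 (2.24 to 5.06), 4.75 (2.73 to 8.94) and 5.01 (3.51 to 7.37). Whether the ratio in gonadotropes differs from those in other classes could not be tested across single libraries, and the members were selected on that ratio.

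**Figure D4:**
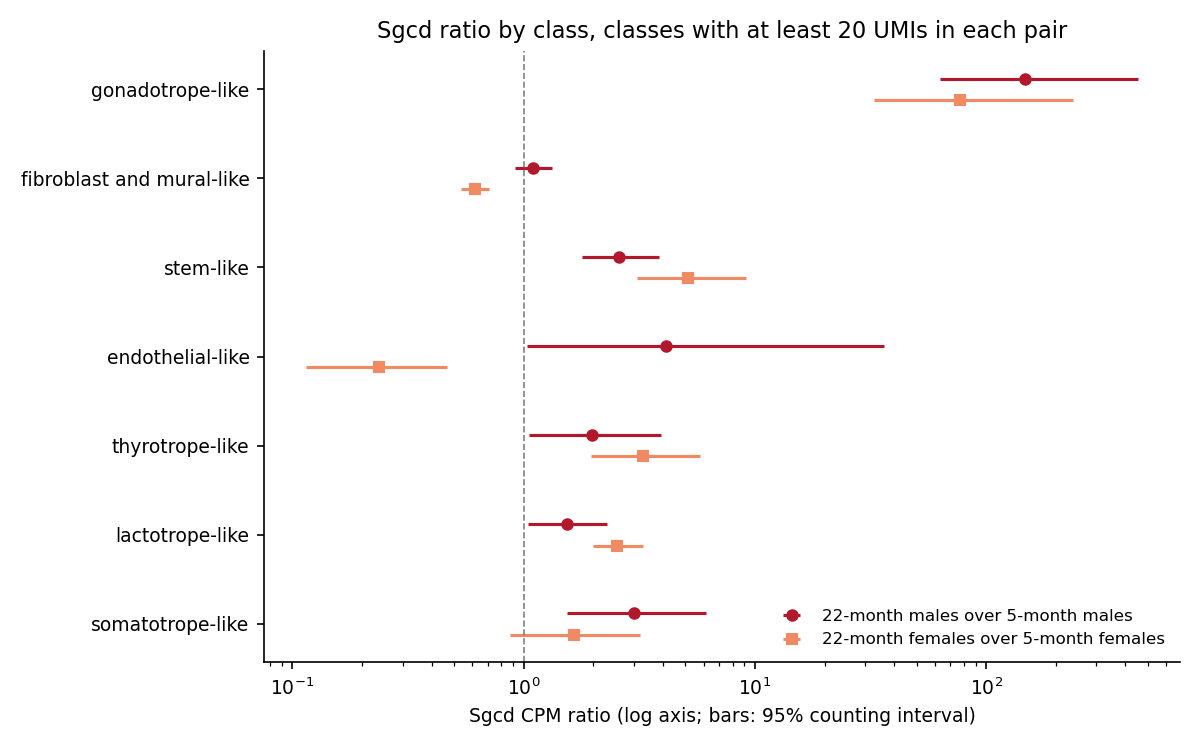
Ratio of Sgcd CPM in 22-month over 5-month libraries (log axis, with 95% counting intervals) for the 7 classes with at least 20 UMIs in the higher library of each pair, a circle for the pair labelled males and a square for the pair labelled females. Gonadotrope-like nuclei stand at 147 and 76.8, stem-like nuclei at 2.59 and 5.15, and the fibroblast and mural-like class at 1.10 and 0.615.

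Tacr1 was close to absent from the other named classes. The 10 other named classes together held 3 UMIs in 9498 nuclei of 22-month males and 8 in 6745 nuclei of 22-month females, against 1 in 6798 of 5-month males and 2 in 6202 of 5-month females. Gonadotrope-like nuclei held 90.9% and 86.4% of all Tacr1 UMIs in the 22-month libraries while making up 2.88% and 2.36% of their nuclei. Of the Sgcd UMIs, they held 50.5% and 25.9% in the 22-month libraries, against 1.81% and 0.713% in the 5-month libraries. Classes with few nuclei limit the order of Tacr1 levels: with no UMI in endothelial-like nuclei of 5-month males, a level of up to 33.4 CPM is allowed at the floor of 3 counts.

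Markers of the fibroblast and mural class, where Sgcd was high, were near 0 in gonadotrope-like nuclei. The 6 fibroblast and mural markers summed to 15.2 and 4.57 CPM in gonadotrope-like nuclei of 22-month males and females, with 1 and 2 markers at 0, against 4.30 and 6.49 CPM in 5-month males and females, with 4 and 1 at 0. In the fibroblast and mural-like class itself they summed to 3059, 2506, 4031 and 3350 CPM. The 7 lactotrope markers moved with labelled age in gonadotrope-like nuclei: they summed to 34384 and 14379 CPM in the 22-month libraries, with none at 0, against 6463 and 3061 CPM in the 5-month libraries, with 1 and 1 at 0, nearly all of it Prl. Without Prl they summed to 297 and 272 CPM, against 12.2 and 23.1 CPM. Lactotrope-like nuclei themselves had 22.6 CPM of Sgcd at most and 0.311 CPM of Tacr1 at most. The 5 pituicyte markers also differed, summing to 76.3 and 88.9 CPM in 22-month males and females, with 4 and 2 at 0, against 10.8 and 10.8 CPM in 5-month males and females, with 2 and 4 at 0. Pituicyte-like nuclei had 62.7 CPM of Sgcd at most and no UMI of Tacr1. The 4 thyrotrope markers, without Tshb, summed to 19.1 and 28.1 CPM in 22-month males and females, against 2.87 and 0.721 CPM in 5-month males and females, with 1 and 1 of the 4 at 0 in the 22-month libraries and 1 and 2 in the 5-month libraries. Thyrotrope-like nuclei had 64.7 CPM of Sgcd and 1.16 CPM of Tacr1 at most. The 5 corticotrope markers summed to 40.6 and 17.0 CPM, with 0 and 3 at 0, against 5.02 and 6.49 CPM, with 2 and 3 at 0, and the 5 somatotrope markers without Gh to 32.8 and 35.9 CPM, against 10.8 and 15.9 CPM, in the same order of libraries. The 6 endothelial markers summed to 29.9 and 25.5 CPM, against 24.4 and 19.5 CPM. The 6 stem markers summed to 73.4 and 30.1 CPM, against 37.3 and 31.7 CPM. The 4 melanotrope markers summed to 429 and 219 CPM, against 388 and 229 CPM, and the 5 macrophage markers to 1.96 and 4.57 CPM, against 7.17 and 3.61 CPM. The part of these markers in the Sgcd and Tacr1 levels was not tested. In gonadotrope-like nuclei with no UMI of a fibroblast or mural marker, a subset chosen after the data had been seen, the Sgcd ratio was 135 for males and 76.8 for females. With the 5-month count set to the floor of 3, Tacr1 was 19.1-fold and 17.3-fold higher in the 22-month library of that subset.

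The ratios of the members were set against all genes of the class. Of 10567 genes with at least 20 UMIs in the higher library, 5.92% were at least 2-fold higher and 6.84% at least 2-fold lower in 22-month than in 5-month males. Of 10218 genes, 6.09% were at least 2-fold higher and 11% at least 2-fold lower in 22-month than in 5-month females. Of the 9754 genes that met the count minimum in both pairs, 3.28% were at least 2-fold higher and 2.36% at least 2-fold lower in both, and both members were among the higher ones. The rule used that contrast, so nothing is read from it. Ordered by the smaller of a gene's ratios, with counts under 3 set to 3, Sgcd came 4th and Tacr1 24th of the 9754. The median log2 ratio of all genes was -0.07 for males and -0.13 for females, and with TMM library sizes it was 0.07 and 0.04. Of the genes past 2-fold, 46.4% were higher in 22-month males and 35.6% in 22-month females, and with TMM library sizes these shares were 60.6% and 50.5%.

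Among the dystrophin-associated complex, 16 of 20 genes had at least 20 UMIs in some library, and of the 14 that met the minimum in both pairs, Sgcd, selected for it, and Sgcz were at least 2-fold higher in both and none lower in both, beside 3.28% higher and 2.36% lower in both over all genes. The median log2 ratio of the 16 was 0.00 for males and 0.21 for females, beside -0.07 and -0.13 over all genes. Sgcz, which encodes zeta-sarcoglycan, had 595 and 333 CPM in 22-month males and females, against 169 and 73.6 CPM in 5-month males and females, with ratios of 3.52 (3.06 to 4.06) and 4.52 (3.65 to 5.65). Nos1, the neuronal nitric oxide synthase that binds syntrophins, had 19 and 154 UMIs in 22-month males and females, against 0 and 3 in 5-month males and females. It was just under the count minimum in the male pair, where it was 4.32-fold higher with the 0 set to 3 counts, with a lower limit of 3.18. Sntg1, a syntrophin, had ratios of 3.85 (3.55 to 4.17) for males and 1.88 (1.78 to 1.99) for females, and passed in both pairs with TMM or median-of-ratios scaling.

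Among other sarcoglycans, Sgcb was lower in the 22-month library of the male pair only, the ratio intervals of Sgce included 1 in both pairs, and Sgca was near 0. Dmd was lower and Utrn higher in both 22-month libraries. Sgcb, which encodes the beta-sarcoglycan that pairs with delta-sarcoglycan, had 18.6 and 25.5 CPM in 22-month males and females, against 35.9 and 21.6 CPM in 5-month males and females. Its ratios were 0.519 (0.331 to 0.807) for males and 1.18 (0.713 to 1.96) for females. Sgca, the muscle alpha subunit, had 0 and 0 UMIs in the gonadotrope-like nuclei of 22-month males and females, against 0 and 1 UMIs in those of 5-month males and females. Sgce, the epsilon subunit made in many tissues, had 101 and 73.2 CPM in 22-month males and females, against 91.8 and 66.4 CPM in 5-month males and females. By the smaller of each gene's ratios, the lowest of the complex were Sntb1, Sspn and Dmd, of which Sspn was under the count minimum in the male pair. Dmd, which encodes dystrophin, had 384 and 235 CPM in 22-month males and females, against 676 and 517 CPM in 5-month males and females, ratios of 0.567 (0.515 to 0.624) and 0.455 (0.3997 to 0.517). Sntb1, a syntrophin, had ratios of 0.434 (0.394 to 0.478) for males and 0.738 (0.683 to 0.798) for females. Sspn, which encodes sarcospan, had 8 and 11 UMIs in 22-month males and females, against 9 and 22 in 5-month males and females. Utrn, which encodes the dystrophin relative utrophin, was opposite to Dmd, with 251 and 395 CPM in the 22-month libraries, against 146 and 164 CPM in the 5-month libraries.

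Of the tachykinins and their receptors, Tacr1 alone of 7 genes had 20 UMIs in a library. Tac1, which encodes the precursor of substance P, and Tac2 had 0 UMIs in gonadotrope-like nuclei of every library. Tacr2 and Tacr3, the other receptors, had 1 UMI each, and Mme, a peptidase that cleaves tachykinins, had 3 UMIs in 22-month males and none in the other libraries.

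In the Gq pathway, 13 of 18 genes met the minimum, and 3 of the 13 were at least 2-fold higher in both pairs and none lower in both, beside 3.28% higher and 2.36% lower over all genes. The median log2 ratio of the 13 was 0.41 for males and 0.63 for females, beside -0.07 and -0.13 over all genes. Arrb2, a beta-arrestin that binds activated receptors, had 111 and 118 CPM in 22-month males and females, against 38.0 and 31.0 CPM in 5-month males and females, ratios of 2.92 (2.16 to 4.02) and 3.79 (2.71 to 5.42). Itpr2, an inositol trisphosphate receptor that releases calcium, had ratios of 2.33 (1.55 to 3.604) and 2.65 (1.86 to 3.86), and Prkce, a protein kinase C, had 2.03 (1.90 to 2.16) and 2.54 (2.35 to 2.74). By the smaller of each gene's ratios, the lowest of the 13 were Rgs4, a regulator that shortens Gq signals, at 0.490 (0.390 to 0.614) and 0.977 (0.752 to 1.27), Plcb1, a phospholipase C, at 0.628 (0.548 to 0.719) and 0.523 (0.456 to 0.5999), and Arrb1, at 0.682 (0.421 to 1.11) and 0.789 (0.453 to 1.37).

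Gonadotrope identity genes, of which 6 also served to name the class, had a median ratio below that of all genes, and Fshb, Lhb and Pitx1 were at least 2-fold lower in both pairs. Of 15 genes 14 had 20 UMIs in some library, and of the 13 that met the minimum in both pairs none was 2-fold higher and 3 were 2-fold lower in both, beside 3.28% and 2.36% over all genes. The median log2 ratio of the 14 was -1.06 for males and -0.83 for females, beside -0.07 and -0.13 over all genes. Fshb had 530 and 1072 CPM in 22-month males and females, against 3902 and 4151 CPM in 5-month males and females, ratios of 0.136 (0.127 to 0.145) and 0.258 (0.244 to 0.273). Lhb had 17.6 and 33.3 CPM in 22-month males and females, against 75.3 and 127 CPM in 5-month males and females. Egr1, an early response factor of GnRH signalling, had 5 and 2 UMIs in 22-month males and females, against 188 and 7 in 5-month males and females, so most of its UMIs came from a single library. Pitx1, a pituitary transcription factor, had ratios of 0.497 (0.441 to 0.560) and 0.462 (0.407 to 0.524), and fell short of 2-fold in a pair with TMM or median-of-ratios scaling. Among the genes that were not lower, Gnrhr had ratios of 1.39 and 1.76 and Nr5a1, the gonadotrope nuclear receptor SF-1, 1.16 and 1.11.

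Of the sex-steroid receptors and the estrogen-regulated gene Greb1, 4 of 5 genes met the minimum, and 2 of them, Greb1 and Pgr, were at least 2-fold higher in both pairs, beside 3.28% over all genes. Greb1 had 190 and 270 CPM in 22-month males and females, against 30.1 and 21.6 CPM in 5-month males and females, ratios of 6.32 (4.59 to 8.91) and 12.5 (8.605 to 18.7). Pgr, the progesterone receptor, had 222 and 476 CPM in 22-month males and females, against 59.5 and 63.5 CPM in 5-month males and females, ratios of 3.72 (2.94 to 4.77) and 7.51 (6.01 to 9.47). Esr1, estrogen receptor alpha, had smaller ratios of 1.48 (1.40 to 1.57) and 1.58 (1.48 to 1.68). These libraries differ in sex-chromosome content as well as in labelled age, as given above, and the part of either was not tested.

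**Figure D5:**
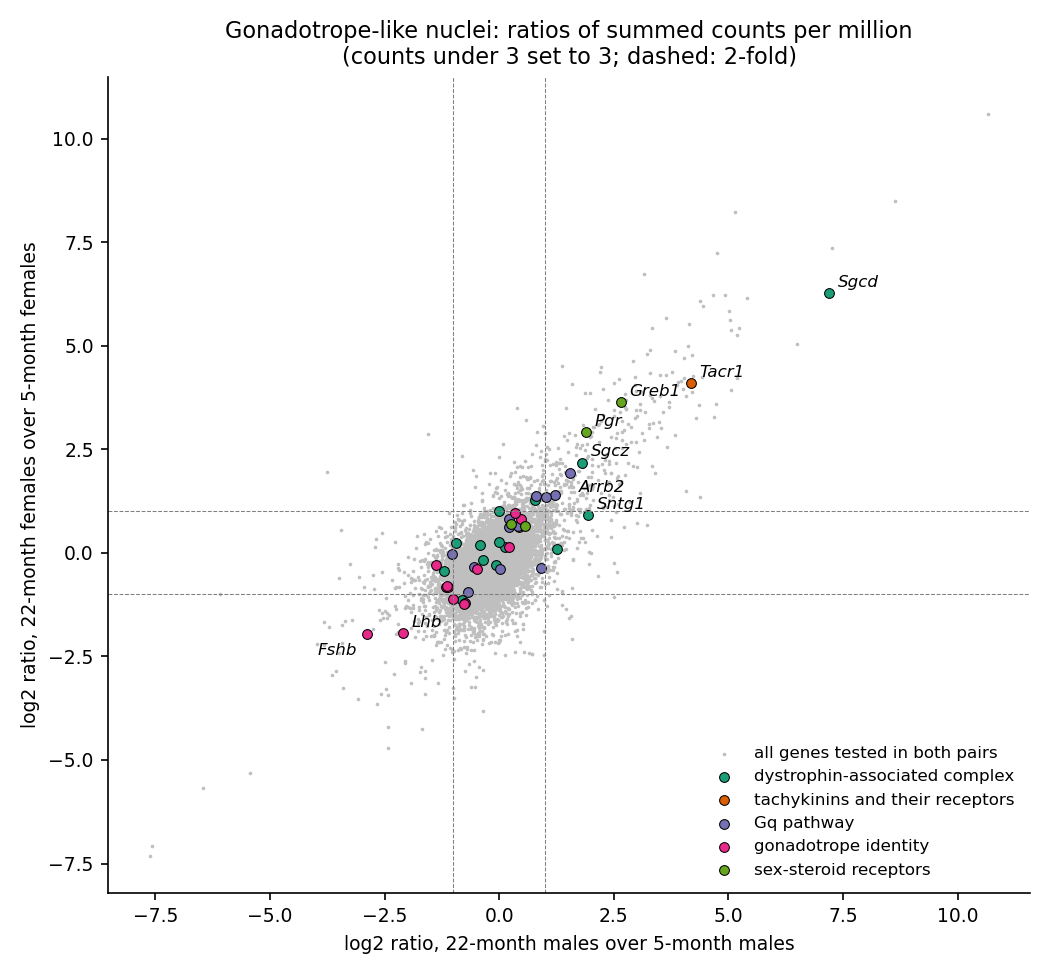
Log2 ratio of CPM in gonadotrope-like nuclei, 22-month over 5-month males (horizontal) against 22-month over 5-month females (vertical), for the 9754 genes with at least 20 UMIs in the higher library of both pairs, with the gene lists in colour and dashed lines at 2-fold. Counts under 3 were set to 3, so the Tacr1 point at 4.19 and 4.11 depends on that floor. Sgcd stands at 7.202 and 6.26, Greb1 and Pgr are upper right of the dashed lines and Fshb and Lhb lower left.

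Of the genes next to the members on the chromosome, none with over 1 UMI was higher in both pairs. The nearest protein-coding genes on either side of Sgcd are Havcr1 and Timd4, which had at most 1 UMI in gonadotrope-like nuclei of any library, and Rack1 and Trim41. Rack1, a ribosomal scaffold protein, had 47.0 and 47.7 CPM in 22-month males and females, against 55.2 and 44.0 CPM in 5-month males and females. Trim41 had 43.1 and 46.4 CPM in 22-month males and females, against 60.2 and 46.9 CPM in 5-month males and females. Around Tacr1, Eva1a had at most 1 UMI. Mrpl19, a mitochondrial ribosomal protein, had 13.7 and 6.54 CPM in 22-month males and females, against 16.5 and 18.7 CPM in 5-month males and females. Pole4, a DNA polymerase subunit, had 18.6 and 10.5 CPM in 22-month males and females, against 20.8 and 20.2 CPM in 5-month males and females. Hk2, a hexokinase, had 20.6 and 18.9 CPM in 22-month males and females, against 24.4 and 36.8 CPM in 5-month males and females.

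Genes with a pattern like each member were ranked by Pearson's r of log2(CPM + 10) over the 44 sums of 11 classes in 4 libraries, among 11124 genes. The sums of a library share its depth and its preparation, so r is given as a description. The genes most like Tacr1 were Siglec15 (r = 0.967), Qrfprl (0.964), Gm21798 (0.927), Ppp1r1c (0.895) and Nhlh2 (0.893). Siglec15 had 30 and 37 UMIs in gonadotrope-like nuclei of 22-month males and females, against 0 and 0 in 5-month males and females, and at most 2.19 CPM in any other class. In the same order of libraries, Qrfprl had 55 and 65 UMIs against 2 and 0, and Ppp1r1c 146 and 138 against 0 and 1. Gm21798 had 224 and 248 UMIs in the 22-month libraries against 6 and 3 in the 5-month libraries, and Nhlh2, a helix-loop-helix transcription factor, 33 and 82 against 2 and 2. The likeness is what chose these genes, so their counts are a description.

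The genes most like Sgcd were Il6st (r = 0.811), Akap12 (0.810), Rnd3 (0.802), Lamb1 (0.772) and Sept11 (0.765). Each was higher in some other class than in gonadotrope-like nuclei of any library, with highest levels there from 157 CPM (Rnd3) to 579 CPM (Sept11). Rnd3, an atypical small GTP-binding protein, was nearest to Sgcd within gonadotropes, with 78 and 152 UMIs in 22-month males and females, against 2 and 1 in 5-month males and females. Il6st, the shared receptor subunit gp130, had 114 and 90.8 CPM in 22-month males and females, against 40.2 and 36.1 CPM in 5-month males and females. Between Sgcd and Tacr1, r was 0.356, and fibroblast and mural-like nuclei, the class with most Sgcd, held no UMI of Tacr1 in any library.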

How the data were processed

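The deposited values are UMI counts per gene and barcode of 4 single-nucleus libraries, made with Cell Ranger 7.0.1, per the file headers, on genome build mm10, per the submitters' processing notes. The treatment of intronic reads was not stated in these sources. Barcodes with fewer than 500 genes or over 5% mitochondrial UMIs were removed, and Scrublet doublets were removed at a score of 0.135 in every library, the median of its automatic thresholds (10.5% to 14.2% of barcodes).

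Nuclei were clustered together with scanpy 1.11.5 (3000 variable genes, 30 components, 15 neighbours, Leiden resolution 1) without hormone, mitochondrial and sex-check genes, Sgcd and Tacr1, and without batch correction. The 24 clusters were named where a class's markers averaged a log2 of at least 1 over the other clusters, led the next class by 0.75 and had at least 3 markers past 2-fold. The lead was set after the clusters had been seen and kept a cluster of 120 nuclei of 22-month males and 1 of 22-month females out of the somatotrope-like class. A cluster of 330 nuclei, whose best scores were gonadotrope (1.78) and endothelial (1.64), also fell short of the lead and stayed unnamed. It held 134 and 71 nuclei of 22-month males and females, against 28 and 97 of 5-month males and females. Another of 537 nuclei, with best scores lactotrope and thyrotrope, fell short too. This gave 11 classes.

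UMIs were summed per class and library and divided by the class total (CPM). Intervals are exact Poisson (levels), Clopper-Pearson (shares) and binomial (ratios). A count of 0 was set to a floor of 3, and a ratio at that floor leaves out the counting error of the other count. With 1 library a group no test was made; the members and gene lists were chosen with earlier results of these data known. The genes named are the members, those with the highest and lowest ratios in each list (ordered by the smaller of a gene's ratios), the 5 most alike and the nearest genes. Other list genes were named after their values had been seen, and some are not reported here by name. The call rule and intervals were checked on simulated data. In thinned counts each nucleus was drawn to 2000 UMIs. edgeR 4.0.16 served only for TMM factors.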

Additional observations from a re-analysis of the deposited data

Results flagged for a closer look

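In endothelial-like nuclei the labelled sexes moved in opposite directions: Sgcd had 92.4 CPM in 22-month males against 22.3 CPM in 5-month males, a ratio of 4.15 (1.04 to 36.0), and 36.3 CPM in 22-month females against 153 CPM in 5-month females, a ratio of 0.237 (0.114 to 0.464). The difference between the pairs was not tested, and the 5-month male value rests on 2 UMIs in a single nucleus.

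Nuclei in clusters that stayed unnamed, which entered no class, had 34.1 and 52.7 CPM of Sgcd in 22-month males and females, above the 23.7 CPM that a count of 0 allows in 5-month males at the floor of 3 counts, and above the upper bound of 14.4 CPM in 5-month females, where 2 UMIs were counted. Most of these UMIs, 100 and 92, lay in 290 and 221 nuclei of a cluster whose best marker scores were lactotrope and thyrotrope, and which held 11 and 15 nuclei of the 5-month libraries. That cluster also held 4 and 1 UMIs of Tacr1 in 22-month males and females. Its Gnrhr UMIs numbered 57 and 2 in these libraries, or 31.9 and 1.44 CPM.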

How the results depend on the processing

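Of 104 values recomputed for the members and for the counts of genes, 87 stayed within the interval or within 1.5 times of the reported value. No ratio of the members changed direction, which shares and counts of genes could not do. The members were selected on that direction, and the Tacr1 ratios had no 5-month UMI below them, so nothing is read from it. Sgcd ratios ran from 46.4 to 238 over all alternatives, which included TMM and median-of-ratios scaling, totals without hormone genes, Leiden resolution 2, a gate on 2 Gnrhr UMIs, doublets kept, nuclei with at least 1000 genes and pairing across the labelled sexes. The Tacr1 ratio at the floor of 3 counts fell to 8.17 (males) and 12.5 (females) with the Gnrhr gate and to 5.44 and 6.63 after thinning. Without the nucleus with most UMIs, an alternative chosen after seeing the data, it was 13.1 and 12.5. Thinning, which lowers every count, gave shares of 42.7%, 26.5% and 0.385% for Sgcd in 22-month males, 22-month females and 5-month females, and 3.07% and 4.71% for Tacr1 in 22-month males and females. Genes at least 2-fold higher numbered 626 (males), 622 (females) and 320 (both pairs) as reported, 358, 383 and 198 with at least 50 UMIs, and 3474, 3000 and 1139 with no minimum beyond 1 UMI. With a pseudocount of 1 in place of 10, 2 of the 5 genes most like Sgcd and 4 of the 5 most like Tacr1 stayed.

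No paired analysis was possible because each group has 1 library and the labels give no replicate numbers. Tacr1 rests on 137 UMIs in 45 nuclei, so its level within subsets is imprecise. Mice within a pool could not be separated.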
